A study of Mus musculus with 4 samples.

Results

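Serpins are a large family of proteins, most of which trap and inactivate serine proteases, and some cysteine proteases, by means of an exposed loop that the protease cuts. Family members are grouped into clades by sequence, and several have taken on other work, such as the collagen chaperone Serpinh1 or the corticosteroid-binding globulin Serpina6. In the mammary epithelium, the best known serpin is maspin, Serpinb5. Members here were all non-control probes of the array whose gene name begins with Serpin, which were 78 probes of 59 genes, out of 41174 non-control probes and 28146 gene names. Of these genes, 41 had 1 probe, 17 had 2, and 1, Serpinb6a, had 3.

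RNA came from 2 stable lines derived from EPH-4, a non-malignant mouse mammary epithelial line. The line EV-50 carried the empty H1-2 vector, and the line shGR-19 carried an shRNA vector against the glucocorticoid receptor (GR), a hormone-bound transcription factor encoded by Nr3c1. Both lines were kept without glucocorticoid or serum under 2 µg/ml puromycin, and the question was which genes depend on the GR that has no hormone bound. Each line is a single clone with 2 arrays, and it is not stated whether the duplicates were separate cultures, so p-values measure the spread between arrays, which may be technical.

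The values exist in 2 forms, the scanner output of each array and a table of GeneSpring values made by the authors, and these differed. Scanner values are log2 signals relative to the 75th percentile of their array. Table values are log2 values centred on the median of each probe, so that only their differences carry information. The targeted gene Nr3c1 had scanner values of 1.81 and 1.92 on the arrays labelled EV-50 replicates 1 and 2. Under the label shGR-19, replicates 1 and 2 had scanner values of 1.46 and -0.03, so the array labelled shGR-19 replicate 1 lay nearer to EV-50 than to its duplicate. In the table, Nr3c1 differed by -1.94 on the log2 scale (SE 0.048, limma adjusted p = 0.00215). Over 10267 bright probes, the scanner arrays labelled replicate 1 of the lines differed from each other by an SD of only 0.0801, against 0.446 for those labelled replicate 2. The differences in the table had a correlation across probes, which are not independent replicates, of 0.959 with the scanner difference of replicate 2 and of 0.121 with that of replicate 1. The duplicates of EV-50 also differed widely in the scanner files, by an SD of 0.516. Whether the scanner files labelled replicate 1 and the table columns of the same name hold the same hybridizations is not known. This bears on each scanner mean and on each replicate 1 difference given here. It also bears on which probes were well above background in each line, and so on which were tested in both forms. For the genes on which the results turn both forms are given, and for the others the table difference.

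A large part of the family was not measurable in these cells. A probe was counted as well above background where the scanner software marked it so, and 20 Serpin probes, of 19 genes, reached this on all 4 arrays (25.6%, against 51.4% of all non-control probes). A further 19 probes did so on 1 to 3 arrays, and 39 probes on no array (50.0%, against 32.7% of all probes). For 24 genes no probe was well above background on any array. These include Serpina6, the binding globulin of glucocorticoids in blood, Serping1, the inhibitor of complement C1, Serpind1, the heparin cofactor, and Serpine2, protease nexin. Tests were limited to probes that 1 line or the other showed well above background on both of its arrays, which held for 27 probes of 25 genes.

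Clade A, the secreted antiproteases, had 22 genes on 27 probes, of which 5 probes were well above background on all 4 arrays and 16 on none. The intracellular clade B had 26 genes on 37 probes, with 8 on all 4 arrays and 18 on none. Smaller clades varied: all 3 probes of clade F and the single probe of clade H were measured on every array. The single probes of clades D and G were well above background on none. Clade E had 1 of 4 probes on every array and 2 on none, and clades C and I each had 1 of 2 on every array. Both large clades lie in clusters, 21 clade A genes between positions 104853280 and 105651977 of chromosome 12, 12 clade B genes between 108778585 and 109504790 of chromosome 1, and 14 between 32934722 and 34078809 of chromosome 13 (mm9, the build of the array annotation). Tested were 7 genes of the first cluster, 4 of the second and 7 of the third.

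**Figure D1:**
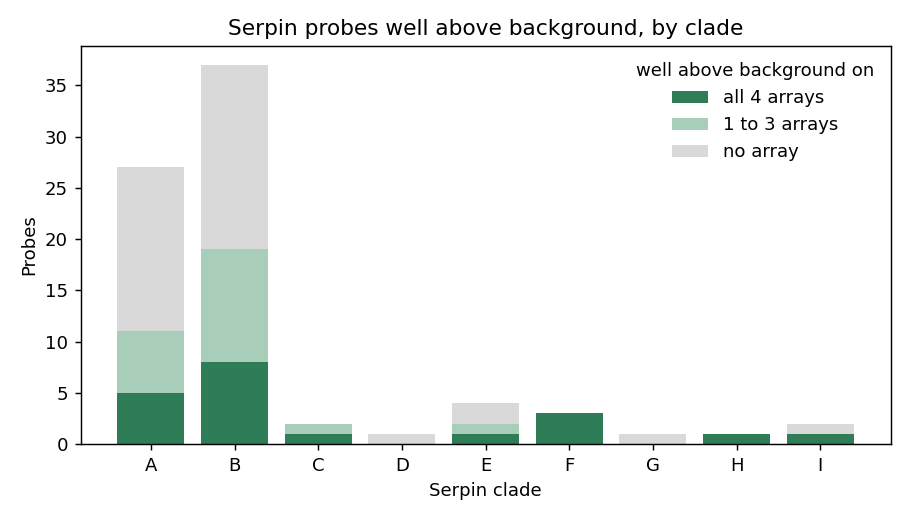
Number of Serpin probes in each clade, stacked by whether they were well above background on all 4 arrays, on 1 to 3 arrays or on none. Clades A and B hold 64 of the 78 probes and most of those that were never well above background.

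Neighbouring paralogs of these clusters can be alike, so the probes were compared with each other. The 60-base probes of different Serpin genes shared no run of 15 or more bases except for Serpinb9d and Serpinb9f, which shared 15. Cross-hybridization with genes outside the family was not examined.

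Between the lines, the tested Serpin probes had no common direction. In the table, 2 of the 27 tested probes were called higher in shGR-19, where a call needs more than a 2-fold difference and a limma adjusted p below 0.01 over all tested probes. None was called lower. The background was 1.87% of 24439 tested probes called higher and 2.39% called lower. In the scanner files no Serpin probe was called, against a background of 0%. There limma gave 209 probes an unadjusted p below 0.05 over the whole array, 1 of them a Serpin probe, and the smallest adjusted p was 0.930. The median log2 difference of the tested Serpin probes in the table was 0.0027, beside 0.0087 for all tested probes. Their median absolute difference was 0.39, beside 0.25, and 14 probes were higher and 13 lower. The columns of the lines did not overlap for 17 Serpin probes (63.0%), against 71.9% of all tested probes. In the scanner files this held for 5 Serpin probes (18.5%), against 17.9% of all tested probes.

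**Figure D2:**
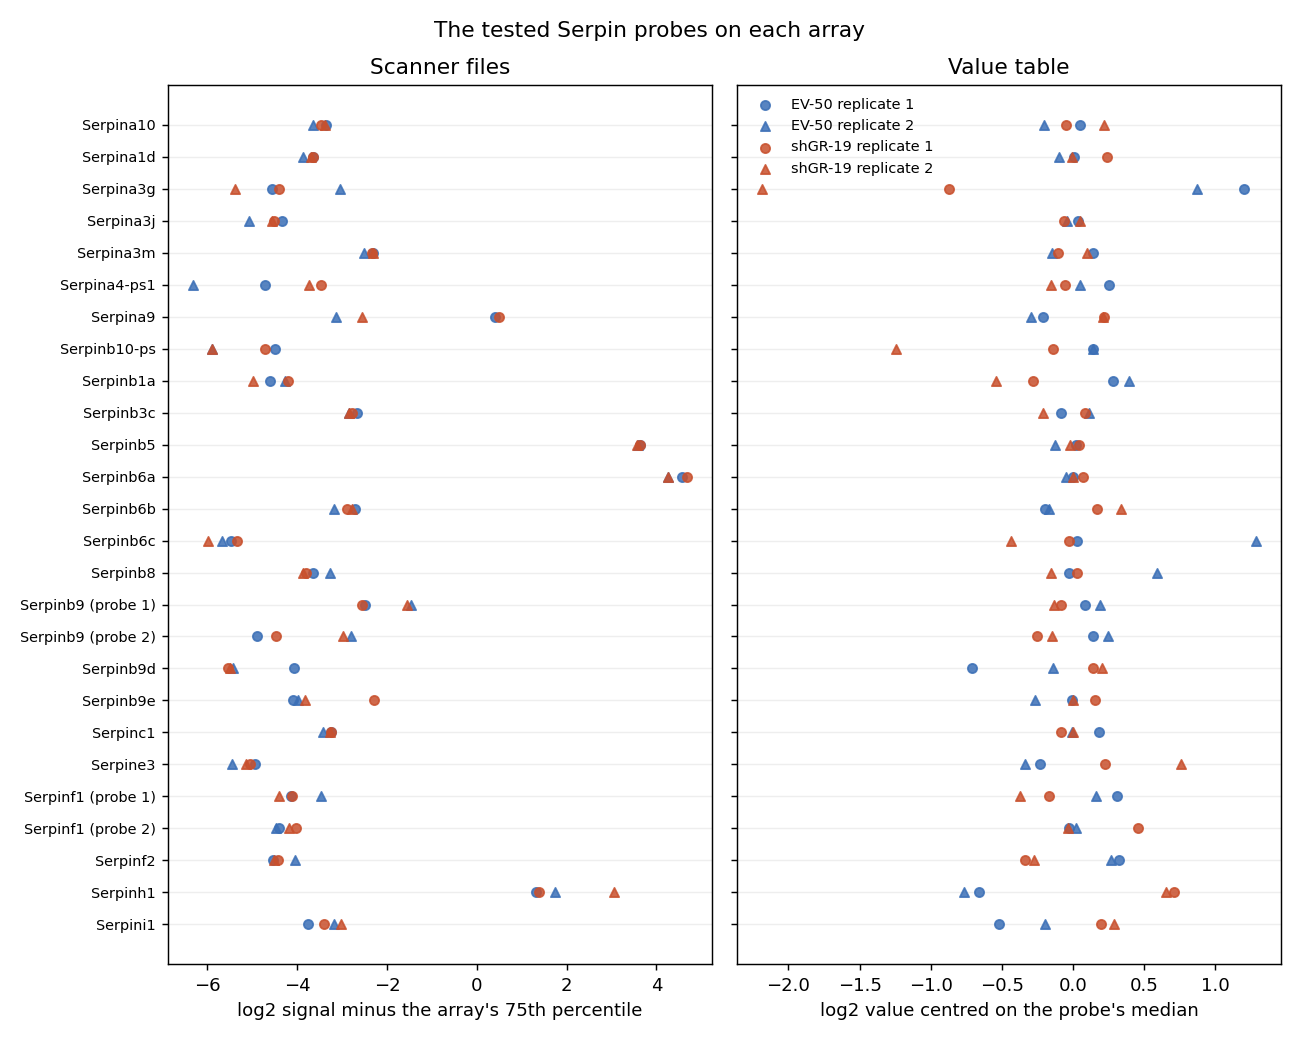
Tested Serpin probes, all but 1, on each array, left as scanner log2 signal minus the array's 75th percentile and right as table log2 value centred on the probe's median, with colour for the line and shape for the replicate. Levels are not comparable between probes. Serpinh1 separates by line in the table, and Serpina9 separates by replicate number in the scanner files.

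Serpinh1, also known as Hsp47, inhibits no protease and instead attends procollagen in the endoplasmic reticulum. In the table it stood at -0.66 and -0.77 in EV-50 and at 0.71 and 0.66 in shGR-19. The table placed it 2.64-fold higher in shGR-19 (log2 difference 1.40, SE 0.064, limma adjusted p = 0.00353). Scanner values of Serpinh1 were 1.32 and 1.73 under the label EV-50 and 1.38 and 3.06 under the label shGR-19. Only the array labelled shGR-19 replicate 2 stood apart from the others. Its scanner difference between the lines was 0.06 within replicate 1 and 1.32 within replicate 2, with 0.69 over both (SE 0.62).

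The table increase of Serpinh1 was not called with the replicate number as a block, a fit that called 0 probes over the whole array. It was also not called with all probes kept, where 15 probes of the array were higher and 28 lower. The plain equal-variance test with adjustment did not call it either, and called 4 probes higher and 11 lower. With 1 array left out, its table difference lay between 1.34 and 1.45. Markers of fibroblasts, which express Serpinh1, were read on the same arrays. Of 7 such genes, 2 were well above background on all 4 arrays, and the log2 of the summed scanner signal of the 7 was 1.96 and 5.18 under the label EV-50 and 1.75 and 5.49 under the label shGR-19. Lum and Col3a1 were well above background on 1 array each and Dcn on none. Lum, Col3a1, Dcn and Col1a1 were not tested. In the table, Col1a2, a collagen chain, was higher in shGR-19 by 3.27 and Pdgfra by 1.16, whereas Postn was lower by 1.72. All 3 were called by limma, with adjusted p of 0.00120, 0.00384 and 0.00253 in that order. They were the only tested markers of the list, and the background was 1.87% of all tested probes called higher and 2.39% lower. The part of these markers in the Serpinh1 values was not tested. All 12 mammary epithelial markers were on the array, 11 were well above background on all 4 arrays, and the log2 of their summed signal lay between 9.76 and 10.07. Of the 11 tested, 1 gene, Krt14, was called lower in the table, against the same background. Endothelial, hepatocyte and adipocyte markers, 5, 7 and 4 genes, had no member well above background on all 4 arrays, and immune cell markers had 4 of 7, with none of these lists holding a called gene. In bulk RNA, fewer cells of a type and less RNA per cell cannot be told apart.

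Serpina3g, a clade A member that inhibits cysteine cathepsins inside cells, had the largest table difference of any tested Serpin probe. Its table values were 1.20 and 0.87 in EV-50 and -0.87 and -2.19 in shGR-19, a 5.91-fold lower level without overlap between the lines. With a log2 difference of -2.56 (SE 0.51) the limma adjusted p was 0.0340, so that it was not called. Scanner values were -4.56 and -3.04 under the label EV-50 and -4.41 and -5.38 under the label shGR-19. Serpina3g was lower in shGR-19 by 2.34 within replicate 2, and in replicate 1 the difference was 0.15. The array labelled EV-50 replicate 2 was the highest and that labelled shGR-19 replicate 2 the lowest. Over all 4 arrays the scanner difference of Serpina3g was -1.10 (SE 0.64), and with background correction by normexp it was -0.40 (SE 0.28).

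Of the 10 genes of the Serpina3 subfamily, 3 were tested and 7 had no probe well above background. Serpina3j and Serpina3m, the other tested genes, differed in the table by -0.01 (SE 0.068) and 0.0027 (SE 0.14). Scanner values of Serpina3m lay between -2.51 and -2.31 on all 4 arrays. Serpina3g was thus the one tested gene of the subfamily with more than a 2-fold difference.

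Stretches of some promoters of these paralogs are shown because the GR binds a palindrome whose core, ACANNNTGT, occurs in some of them. RefSeq windows of the build GRCm38.p6, from 250 bases before to 50 after each gene's start, were searched on both strands. Windows were found for 49 of the 59 genes, 58 in number. The core was in 11 of the 58 windows, of 10 genes (18.97%), against 6.85% of 32851 windows of all genes, and 4 of the 10 genes belong to the Serpina3 subfamily. The windows of these 4 genes share ancestry and are not independent. Windows of Serpina3f overlap and hold the same site, at -83 and at -172 from their starts, so this site counts more than once among the 11. Below are 30 bases from the windows of these 4 genes and of Serpina3g, 5′ to 3′ on the strand of the gene, with the 9 bases of the core, or the bases in its place, in capitals.
Serpina3c: agcacagagcACAGCTTGTccatgccagca
Serpina3f: aacccagagcACAGCTTGTatacatcacca
Serpina3i: agcccagagcACAGCTTGTattcatcagca
Serpina3n: agcacagagcACAGCTTGTccatgccagca
Serpina3g: agtccagagcACAGCTTATctgcatcaaca
The stretch of Serpina3n lay at chr12:104406622-104406651 on the plus strand, and its core began at -76 from the start of the gene. That of Serpina3c was identical and lay at chr12:104153926-104153955 on the minus strand. Those of Serpina3f at chr12:104214451-104214480 and Serpina3i at chr12:104263057-104263086 differed from it by 8 and 7 bases, none of them in the core. The stretch of Serpina3g at chr12:104236151-104236180, found as the one with the fewest mismatches, differed by 9 bases. In its core there was 1 difference, G18A, counted from 1 at the 5′ end with the base of Serpina3n first. This stretch of Serpina3g lay after the start of the gene, so it was not at the same promoter position. The cores of the other 4 genes lay before their starts, that of Serpina3c at -73 and that of Serpina3i at -55. The most similar stretches of Serpina3a, Serpina3b and Serpina3j differed by 16, 12 and 13 of the 30 bases and are not shown. Serpina3c, Serpina3f, Serpina3i and Serpina3n were not well above background on any array, so no difference between the lines was obtained for these 4 genes. A match is a description of letters and not a binding site.

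The remaining clade A genes gave small or contradictory differences. For Serpina4-ps1, a pseudogene transcript, 1 probe was well above background on both arrays labelled shGR-19 and neither labelled EV-50, and was tested through shGR-19 alone. Scanner values of Serpina4-ps1 were -3.47 and -3.73 in shGR-19, and the measured values were -4.73 and -6.32 in EV-50. A second probe of the same transcript was well above background on no array, at -6.47 and -8.14 under the label EV-50 and at -5.94 and -8.34 under the label shGR-19. In the table the sign was opposite, with 0.26 and 0.05 in EV-50 and -0.05 and -0.15 in shGR-19 (log2 difference -0.26, SE 0.097, adjusted p = 0.123). Which form holds for this transcript cannot be told from the files.

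Serpina9, a clade A member known from germinal centre B cells, differed mainly with the replicate number. Its scanner values were 0.40 and -3.13 under the label EV-50 and 0.49 and -2.55 under the label shGR-19. Replicate 1 was thus the high array in both lines. The table difference of Serpina9 was 0.47 (SE 0.056, limma adjusted p = 0.0125). The probe that the array lists as Serpinb10-ps, whose accession RefSeq names Serpinb10, and the dimmer probe of Serpinb9 likewise differed by more than 2-fold between the scanner duplicates of both lines. The others of clade A, Serpina10 and Serpina1d, differed in the table by 0.16 each, with adjusted p of 0.444 and 0.318.

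Clade B serpins are cytoplasmic and nuclear inhibitors, many of which guard cells against leaked granzymes and cathepsins, and none of the 12 tested probes was called. Their table differences ranged from -0.89 to 0.60, with a median of -0.16. Serpinb5, maspin, is an epithelial serpin that does not act as a classical inhibitor. It had scanner values of 3.63 and 3.59 under the label EV-50 and 3.63 and 3.56 under the label shGR-19. Its difference was -0.02 (SE 0.205) in the scanner files and 0.06 (SE 0.074) in the table. All 4 arrays lay close together, and both forms gave differences within 1 SE of 0.

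Serpinb6a, an inhibitor of cathepsin G and of trypsin-like proteases, was likewise measured on every array by 1 probe, with scanner values from 4.25 to 4.68. It differed by 0.06 (SE 0.057) in the table, and its other 2 probes were never well above background. For Serpinb9, the inhibitor of granzyme B, both tested probes were lower in shGR-19 in the table, by 0.25 (SE 0.063, limma adjusted p = 0.0564) and 0.39 (SE 0.071, adjusted p = 0.0283). The scanner values of the brighter Serpinb9 probe were -2.48 and -1.46 under the label EV-50 and -2.55 and -1.56 under the label shGR-19, so that it too followed the replicate number. Serpinb1a, an inhibitor of neutrophil elastase, was at -0.75 in the table (SE 0.115, adjusted p = 0.0202), with scanner differences of 0.40 within replicate 1 and -0.72 within replicate 2, and Serpinb6b at 0.44 (SE 0.081, adjusted p = 0.0288). Both missed the adjusted p of 0.01 and the 2-fold limit.

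In clade F, the pair Serpinf1 and Serpinf2 lies side by side on chromosome 11. Serpinf1, pigment epithelium-derived factor, is secreted and does not inhibit proteases. Its 2 tested probes disagreed in direction. The first read 0.31 and 0.17 in EV-50 and -0.17 and -0.37 in shGR-19 in the table (log2 difference -0.51, SE 0.105, limma adjusted p = 0.0368). The second read -0.02 and 0.02 in EV-50 and 0.46 and -0.03 in shGR-19, with overlap (difference 0.21, SE 0.19, adjusted p = 0.445). Scanner values of the first Serpinf1 probe were -4.14 and -3.48 under the label EV-50 and -4.12 and -4.41 under the label shGR-19. For the second they were -4.40, -4.48, -4.04 and -4.19 in the same order. The direction of Serpinf1 was therefore not settled.

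Serpinf2, alpha-2-antiplasmin, is the main inhibitor of plasmin, and is named here after its values were seen. Table values of 0.32 and 0.27 in EV-50 and -0.33 and -0.27 in shGR-19 put it 1.51-fold lower in shGR-19 (log2 difference -0.60, SE 0.055, limma adjusted p = 0.00837), under the 2-fold limit. In the scanner files it read -4.55 and -4.05 under the label EV-50 and -4.43 and -4.52 under the label shGR-19. Differences of the scanner pairs were 0.12 within replicate 1 and -0.47 within replicate 2. The core of the GR palindrome was in windows of 4 genes with a tested probe, Serpinf2, Serpinb8, Serpinb9d and Serpinb10-ps. In the table Serpinb8 differed by -0.34 (SE 0.25), Serpinb9d by 0.60 (SE 0.22) and Serpinb10-ps by -0.84 (SE 0.42), none of them called. Whether the core bears on any of these differences was not tested. In Serpinf2 it began at base 5 after the start, at chr11:75439478-75439507 on the minus strand of GRCm38.p6.
Serpinf2: gtccaggagaACACCGTGTgctgcgtgtgc
Serpinh1 held instead the core CCGGAAG of sites of ETS factors, the family of the GABP factor. This core was in 5.17% of Serpin windows and 8.86% of all windows. Among Serpin genes it was also in windows of Serpinb6a and Serpinb9c. The tested probe of Serpinb6a differed by 0.06 (SE 0.057) in the table and was not called, and Serpinb9c was not tested. Any bearing of the ETS core on the Serpinh1 difference was not tested. The 30 bases of Serpinh1 lay at chr7:99353190-99353219 on the minus strand, with the capitals marking the ETS core. There the core began at base 32 after the start.
Serpinh1: cacggcgccctCCGGAAGcgtttccaactt
The core AAANNGAAA of interferon response elements was in 12.1% of Serpin windows and 10.6% of all windows.

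In the remaining clades, Serpine3 was well above background on both arrays labelled shGR-19 and on neither labelled EV-50, so that it too was tested through shGR-19 alone. Its scanner values were -4.94 and -5.44 in EV-50 and -5.05 and -5.14 in shGR-19, which overlap. Table values of Serpine3 were -0.23 and -0.34 in EV-50 and 0.23 and 0.76 in shGR-19 (log2 difference 0.78, SE 0.21, adjusted p = 0.0636). Serpinc1, antithrombin, differed by -0.13 in the table (SE 0.090, adjusted p = 0.330). Serpini1, neuroserpin, an inhibitor of tissue plasminogen activator, was higher by 0.60 in the table (SE 0.134, adjusted p = 0.0433), below 2-fold, and by 0.25 in the scanner files (SE 0.31).

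**Figure D3:**
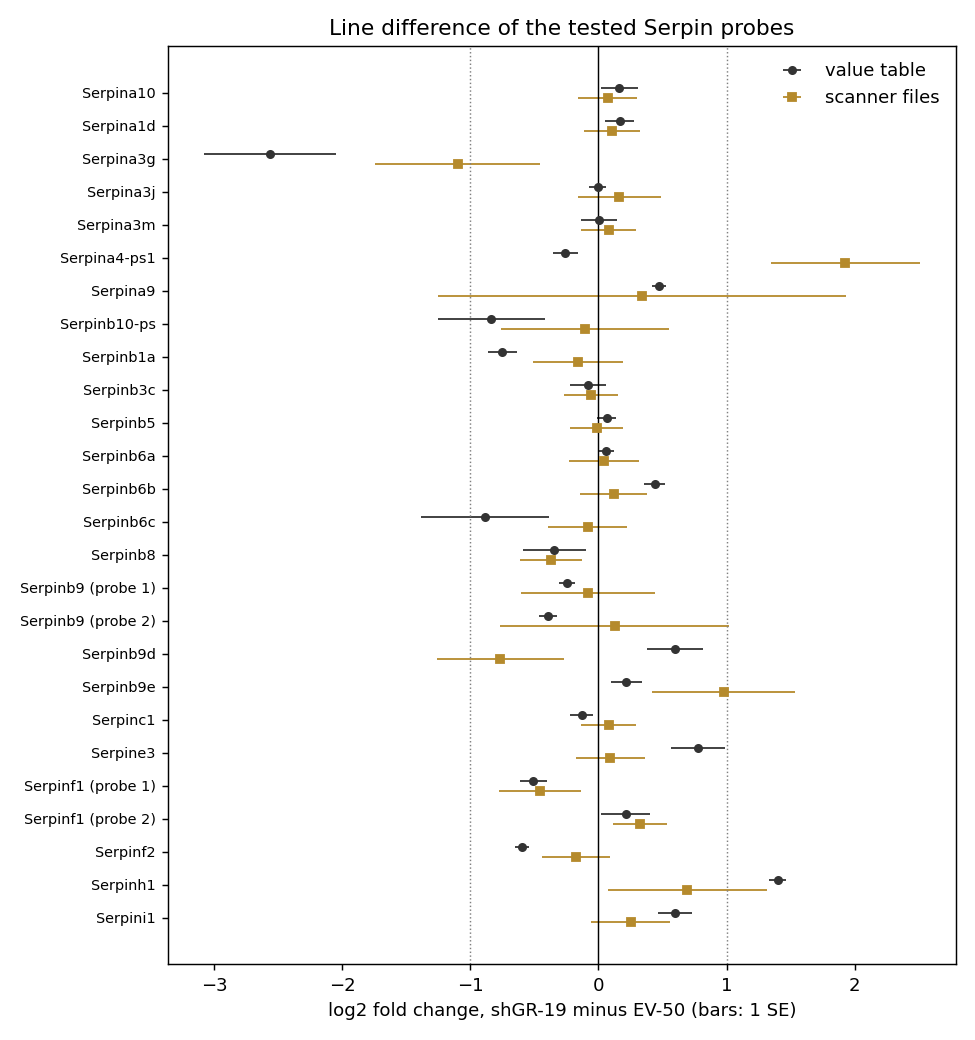
Log2 difference between shGR-19 and EV-50 for the tested Serpin probes, all but 1, with bars of 1 SE, from the table (circles) and the scanner files (squares); dotted lines mark 2-fold. In the table Serpinh1 (1.40) lies beyond 2-fold with a short bar, and Serpina3g (-2.56) with a long one.

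Set against each other, the 2 forms agreed in sign for 20 of the 27 tested probes when the scanner arrays labelled replicate 2 were used, and for 14 when those labelled replicate 1 were used. Over all 24439 tested probes of the array these counts were 19658 and 12746. For Serpinh1 and Serpina3g the replicate 2 arrays gave 1.32 and -2.34, next to 1.40 and -2.56 in the table. The replicate 1 arrays gave 0.06 and 0.15. The table difference of both genes was thus present in 1 of the 2 scanner pairs.

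**Figure D4:**
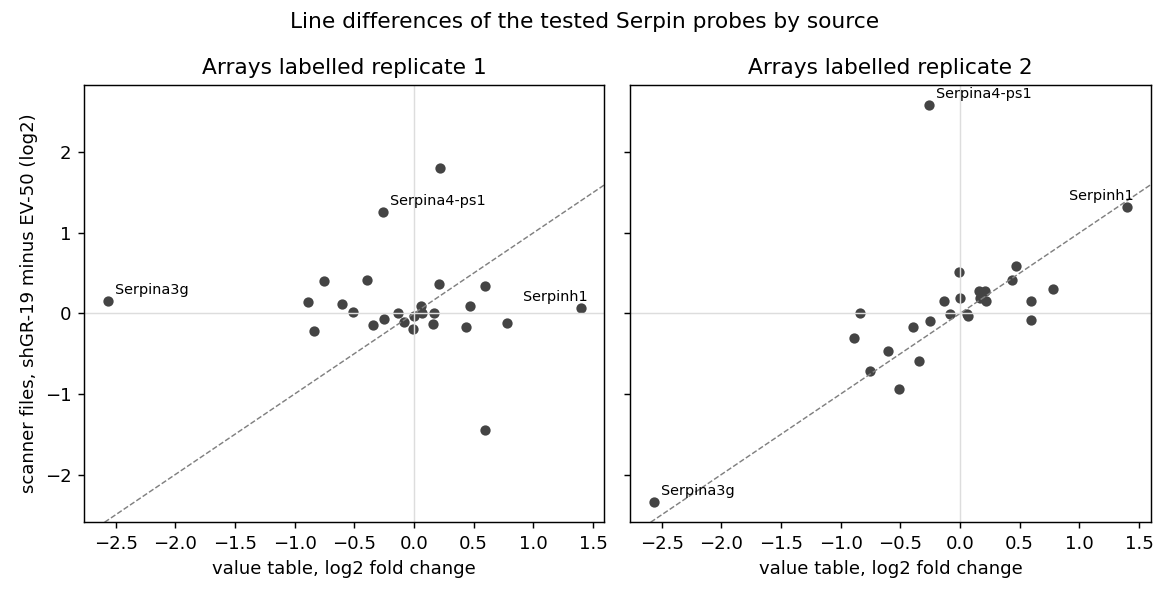
Table log2 difference of the tested Serpin probes, all but 1 (x axis) against the scanner difference between the lines (y axis, log2), within the arrays labelled replicate 1 (left) and replicate 2 (right); the dashed line marks equal values. Serpinh1 and Serpina3g lie near the line at right and near 0 on the y axis at left, and Serpina4-ps1 lies off it in both.

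Genes that serpins act on or work beside were read from 4 lists of 104 genes, of which 103 were on the array and 73 were tested. Of these, 1 was called higher in the table and 4 lower, and in the scanner files limma called none. The background for these table calls, and for those of each list, was 1.87% of all tested probes higher and 2.39% lower. Of the 12 tested genes of the plasminogen and thrombin system none was called, and their median table difference was 0.26. Without the fold limit, 4 of them passed the adjusted p of 0.01, all higher in shGR-19, against a background of 5.53% of all tested probes higher and 6.04% lower at that threshold. By the same measure, 2 target proteases were higher and 3 lower, 0 and 1 of the other inhibitors, and 5 and 4 of the collagen genes. The 4 were the plasminogen activator Plau at 0.99 (SE 0.064, limma adjusted p = 0.00500), the receptor Lrp1, which clears protease and serpin complexes, at 0.87 (SE 0.051, adjusted p = 0.00456), the growth factor activator Hgfac at 0.99 and tissue factor, F3, at 0.67. They are named after their values were seen. Within the scanner arrays labelled replicate 1, Plau differed by -0.08 and Lrp1 by -0.09, and within replicate 2 by 1.05 and 0.97.

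Of 21 tested target proteases of the other clades, 2 were called lower and none higher, with a median of 0.14. C1ra, the complement protease that Serping1 inhibits, was 3.13-fold lower in shGR-19 (log2 difference -1.65, SE 0.082, limma adjusted p = 0.00382). Casp1, the caspase that matures interleukin 1 beta, was 2.14-fold lower (log2 difference -1.10, SE 0.058, adjusted p = 0.00399). Scanner values of C1ra were -1.84 and -1.43 under the label EV-50 and -1.85 and -3.10 under the label shGR-19, and only the array labelled shGR-19 replicate 2 was low.

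Among 16 tested protease inhibitors of other families, 1 was called lower, with a median of 0.09. Slpi, a secreted inhibitor of leukocyte elastase, had the largest difference in the 4 lists, 12.6-fold lower in shGR-19 in the table (log2 difference -3.66, SE 0.072, limma adjusted p = 0.00173). Its scanner values were 5.83 and 5.24 under the label EV-50 and 5.87 and 1.36 under the label shGR-19. The array labelled shGR-19 replicate 1 was thus as high as both of EV-50.

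The 24 tested genes of collagen folding and processing, which work beside Serpinh1, had a median of 0.20, with 1 called higher and 1 lower. Adamts2, which removes the amino-terminal propeptide of procollagen, was 3.26-fold higher (log2 difference 1.71, SE 0.119, limma adjusted p = 0.00563). Plod2, a lysyl hydroxylase of collagen, was 2.22-fold lower (log2 difference -1.15, SE 0.060, adjusted p = 0.00394). Genes of this list therefore did not move in 1 direction.

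**Figure D5:**
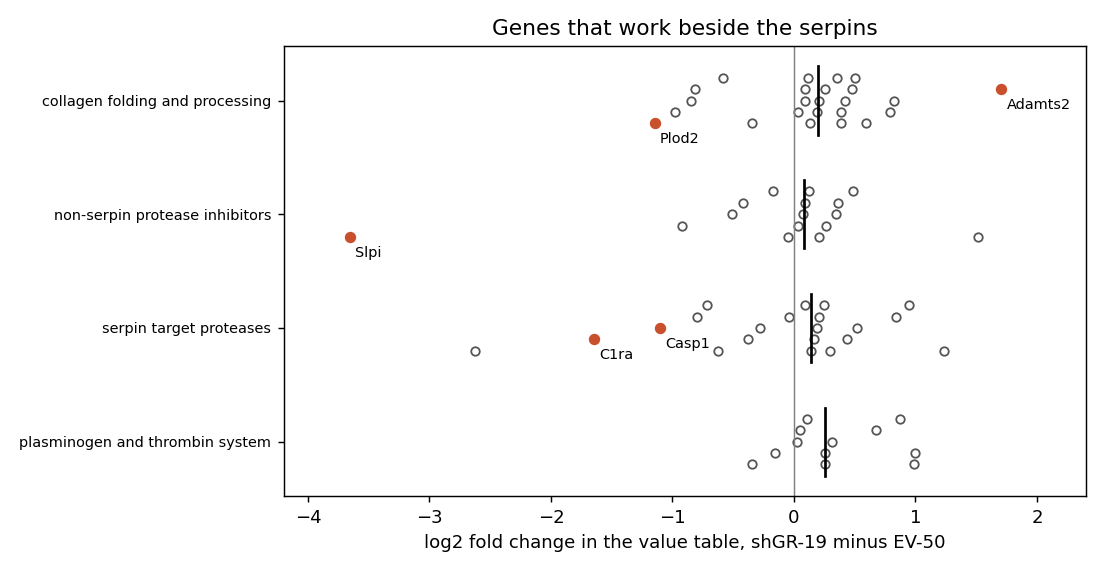
Table log2 difference between shGR-19 and EV-50 for each tested gene of 4 lists; filled points were called and open points were not, and black bars mark the median of each list. Slpi, C1ra, Casp1 and Plod2 lie beyond 2-fold below 0 and Adamts2 above it, and medians run from 0.09 to 0.26.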

How the data were processed

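For each array, per the labels, 300 ng RNA was labelled with Cy3. Spot intensity, deposited as Agilent Feature Extraction 10.5.1.1 gave it (per the submitters' processing notes), was background-subtracted but unscaled across arrays. A second deposited file held log2 values from GeneSpring, in which every probe was centred on its median. All 4 arrays lay on 1 slide read in 1 scan, so no batch could be fitted.

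Control spots and spots marked as outliers (74 to 139 per array) were left out before averaging over the spots of a probe. No saturation was marked. Arrays had a 75th percentile of 516 to 584 intensity units, and 21955 to 25772 probes per array were well above background, 25 to 32 of them Serpin probes. Precision is limited by the number of arrays. The 24439 probes that 1 line or the other showed well above background on both of its arrays were fitted with limma 3.58.1 in R 4.3.3 (lmFit, eBayes), with Benjamini-Hochberg adjustment over all of them. A call needed more than 2-fold and an adjusted p below 0.01, where the study's methods name no adjustment. Both forms were fitted in the same way, and tables were made in Python 3.11.15 with pandas 2.3.3. Steps were tested on simulated data.

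Symbols and promoters came from RefSeq (GRCm38.p6), in which 58 of 59 gene names are current. Genes named were Nr3c1 and all Serpin probes in counts. Every value was given for tested probes that were called, measured in 1 line, over 2-fold in the table or of a gene with disagreeing probes. Untested probes over 2-fold in the table were given with some of their values. Of each list, the called genes with the largest difference were named, up to 4, by the brightest tested probe. The members, lists and tests were chosen with earlier results of these data known. Alternatives were background correction by normexp (offset 50), quantile scaling, the percentile over detected probes, columns centred on their medians, other filters, a robust prior with a trend in intensity (statmod 1.5.0), a replicate block, each array left out, other thresholds, the methods' fold and p without adjustment, a plain equal-variance test, and genes in place of probes. 1 of the members is counted but not reported here by itself. Protein features were not analysed here.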

Additional observations from a re-analysis of the deposited data

How the results depend on the processing

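In the scanner files the counts of Serpin probes called, 0 higher and 0 lower, stayed at 0 under all planned scalings, filters, thresholds and tests of the scanner values. With the value table in their place they became 2 higher, and for the protease and partner lists 1 higher and 4 lower. In the table, the 2 probes called higher, Serpinh1 among them, became 0 with all probes kept and with the plain equal-variance test and adjustment. With 1 array left out, the fit gives the single array left in a line the spread of the other. It therefore cannot decide calls, and only differences are given for it. None called lower became 1 with an adjusted p below 0.05 or with a trend and robust prior (Serpina3g), and with no fold limit (Serpinf2). Centring the columns of the table on their medians did not alter these counts. Over the whole array, limma called 457 probes higher and 585 lower in the table, against 15 and 28 with all probes kept and 4 and 11 with the plain test and adjustment.

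The replicate numbers do not show that arrays were paired. With the number as a replicate block, 0 Serpin probes were called in the table and 0 over the whole array (smallest limma adjusted p 0.0293), with 12087 unadjusted p below 0.05, and 0 in the scanner files. Same-numbered arrays deviated together with r of 0.706 in the scanner files and 0.430 in the table, with 2 pairs.

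Single values in the scanner files changed sign under some settings. With the arrays labelled replicate 1 alone the difference was 0.12 for Serpinf2, -0.11 for Serpine3, 0.15 for Serpina3g and 0.018 for the first probe of Serpinf1. With normexp Serpine3 was at -0.018, and with the value table Serpina4-ps1 was at -0.26. Leaving out 1 array moved the scanner difference of Serpinh1 between -0.15 and 1.53 of Serpina3g between -1.86 and -0.34, of Serpinf2 between -0.43 and 0.074 and of Serpine3 between -0.16 and 0.35. In the table it moved the first pair between 1.34 and 1.45 and between -3.22 and -1.91, and the second probe of Serpinf1 between -0.033 and 0.46. The scanner difference of Serpina4-ps1 ranged from 1.13 to 2.72 with 1 array left out. The cause of these changes was not tested.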

Other observations

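Of the 51 Serpin probes that were not tested, 5 differed by more than 2-fold in the table, which scales values near background like any others. Serpina11 differed by -2.54 on the log2 scale and was well above background on no array, with scanner values from -8.37 to -7.02. A probe of Serpinb12 differed by -2.87 and was well above background only on the array labelled shGR-19 replicate 1, where its scanner value was -4.73, against -6.24, -6.47 and -8.40 on the others. Serpinb11 differed by 1.39 and was well above background only on the array labelled shGR-19 replicate 2, at -5.21. The second probe of Serpinc1 differed by -1.31 and was well above background only on the array labelled EV-50 replicate 2, at -4.12. Finally, a probe of Serpinb1b differed by -1.05 and was never well above background. In the table, replicates 1 and 2 of EV-50 were at 4.03 and 0.25 for Serpina11 and at 0.39 and 3.75 for Serpinb12. They were at 2.34 and 0.09 for Serpinc1, -0.56 and -0.78 for Serpinb11 and 0.80 and 0.23 for Serpinb1b.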
